A study of Mus musculus with 7 samples.

Results

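Cortical excitatory neurons are the projection neurons of the cerebral cortex, and a set of 34 genes that mark them and the layers they occupy was followed in forebrain RNA of *Lhx6* mutant mice. The members were chosen by name, as the rows of the count table whose symbol stands in the set, and all 34 were found among the 47729 genes of the table. RNA-seq had been performed on 7 samples taken at postnatal day 15 (P15), each pooling 2 animals of the strain F1(C57BL/6 X 129Sv). Controls (*Lhx6*+/-, 4 pools) carried 1 copy of the mutant allele Lhx6tm2Vpa and mutants (*Lhx6*-/-, 3 pools) carried it on both chromosomes, so that all animals bore the allele and no group was wild-type. The allele acts in every cell that would express *Lhx6*, a LIM homeobox gene of interneurons generated in the medial ganglionic eminence, and the RNA came from the whole forebrain, so a difference in bulk RNA cannot tell fewer cells of a type from less RNA per cell.

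Projection neurons release glutamate, which they load into synaptic vesicles with transporters of the SLC17 family, and they arise from progenitors of the dorsal telencephalon that express homeobox genes such as *Emx1*, *Emx2* and *Lhx2*. Transcription factors of the NeuroD family act as these cells become neurons. Neurons of the upper layers project within the cortex, layer 4 neurons receive thalamic input, and neurons of the deep layers project to subcortical targets or the thalamus. Many of the genes that mark these classes are also used by other forebrain cells, among them interneurons, hippocampal pyramidal cells and striatal projection neurons.

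Library totals ran from 32556304 to 38069151 expected counts. *Lhx6* itself had between 476 and 615 normalized counts in controls and between 70.1 and 76.6 in mutants, in accordance with the genotype labels. The forebrain gene *Tbr1* had between 3254 and 4803 normalized counts, whereas 8 cerebellar and hindbrain markers summed to between 1.83 and 3.74 CPM (counts scaled to a common library total) in all libraries, and *Hoxa5* among them was at 0 throughout. The first principal component held 39.6% of the variance and set control libraries 2 and 3 and mutant library 5 apart from control libraries 10 and 11 and mutant libraries 12 and 13. The records do not say what these library numbers stand for, and each run of numbers holds both genotypes, so differences within each run are given beside the pooled ones. Where a gene is listed library by library, the values stand in the order 2, 3, 10 and 11 for controls and 5, 12 and 13 for mutants, and SE is the standard error of a log2 fold change.

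Most genes of the set did not pass the test, and those that did were mainly lower in mutants. *Rasgrf2*, *Scnn1a* and *Crym* were at less than 50% of the control level, *Calb1*, *Rorb*, *Etv1* and *Lhx2* were lower by smaller amounts, and *Sox5* was higher. In all, 8 of the 34 genes (23.5%) differed at an adjusted p of 0.05 or less in edgeR's quasi-likelihood test, against 4.85% of the 19684 genes tested. Lower were 7 genes, against 1.87% of all genes, and higher was 1, against 2.97%. The 3 mutant libraries lay outside the range of the 4 control libraries for 12 genes (35.3%), against 19.7% of all genes, with 9 below (9% of all genes) and 3 above (10.7% of all genes). The median log2 fold change over the set was -0.10, beside -0.013 over all genes tested, and changes ran from -1.32 to 0.86. All 34 genes had at least 10 counts in all 7 libraries, so none entered the test through 1 genotype alone. Genes tested needed such counts in only 3 libraries, so the shares of all genes are not matched to the set for level. The set was also chosen with earlier results of these data known. At an unadjusted p of 0.05 or less stood 14 of the 34, against 18.2% of all genes. With 1 library left out, between 3 and 6 of the 34 were called, and between 302 and 971 of all genes. With DESeq2 there were 11 called, against 8.8% of all genes, 2 of them higher (5.09% of all genes) and 9 lower (3.7%). With limma-voom there were 7, against 4.89%, with 1 higher (3.09%) and 6 lower (1.8%).

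**Figure D1:**
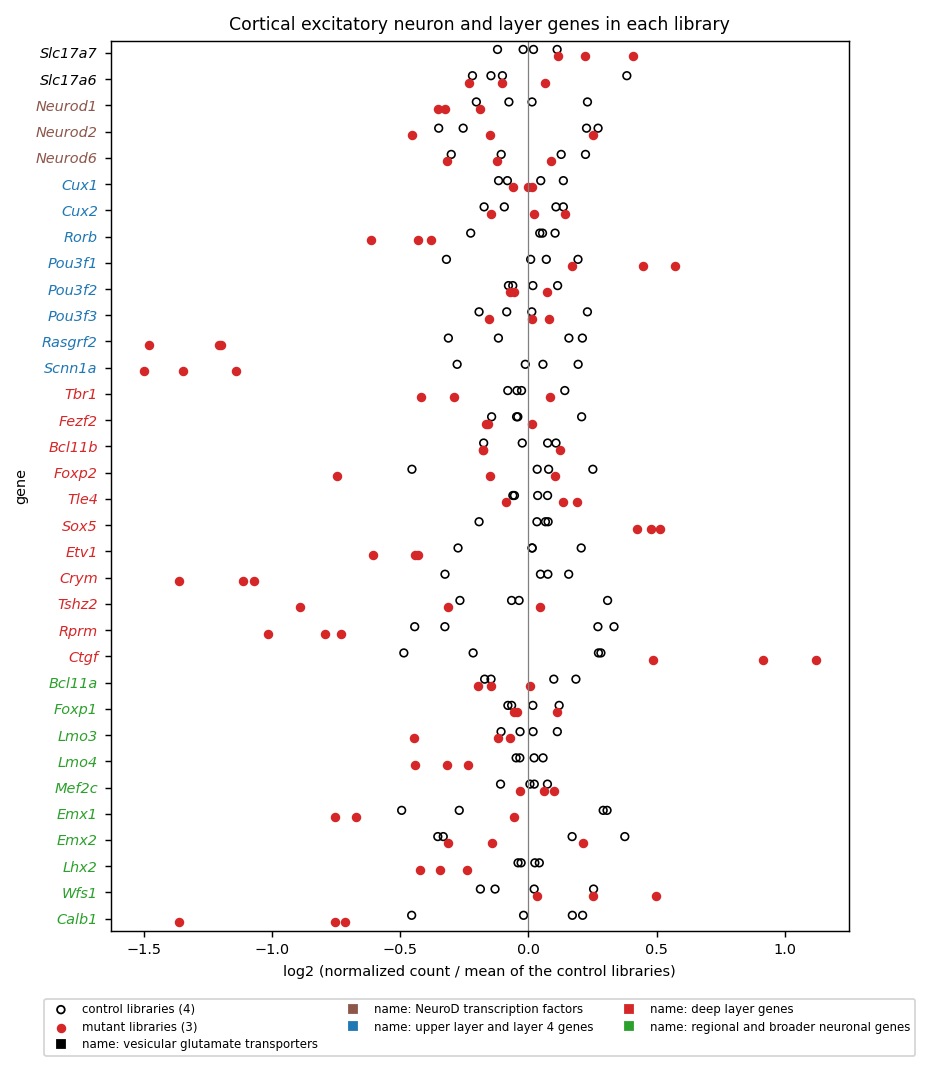
Normalized count of each gene in each library, as the log2 ratio to the mean of the 4 control libraries (x axis), with 1 row per gene. Open circles are control libraries and filled circles mutant libraries, and the colour of a name gives its group. Filled circles lie left of all open circles for 9 genes and right of them for 3.

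The vesicular glutamate transporters were examined first, since they define the excitatory transmitter phenotype. *Slc17a7* encodes VGLUT1, the main transporter of cortical and hippocampal projection neurons. It had 73436, 62495, 66985 and 68887 normalized counts in the controls, as against 79132, 90141 and 73564 in the mutants. Mutant library 13 lay just above control library 2, so that the genotypes were apart by little. The log2 fold change of *Slc17a7* was 0.25 (95% interval 0.035 to 0.47) and did not pass the threshold (adjusted p = 0.203, edgeR). *Slc17a6* encodes VGLUT2, which is used mainly by thalamic and other subcortical neurons. Its normalized counts were 878, 852, 1230 and 810 in controls and 803, 878 and 985 in mutants, with a log2 fold change of -0.086 (95% interval -0.44 to 0.27). Control library 10 stood above the others for *Slc17a6*, and without it the log2 fold change was 0.069. Per exon length, the level of *Slc17a7* exceeded that of *Slc17a6* by between 100.04 and 156 times in controls and between 137 and 189 times in mutants. A list of 10 thalamic markers summed to between 153 and 198 CPM in controls and between 171 and 177 CPM in mutants, with none of the 9 tested past the threshold.

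None of the 3 NeuroD transcription factors passed the test. *Neurod1* averaged 536 ± 69.3 normalized counts over the 4 control pools (SD) and 439.6 ± 27.2 over the 3 mutant pools (SD), a log2 fold change of -0.29 (95% interval -0.57 to -0.0025, adjusted p = 0.269, edgeR). Other genes overlap 13.01% of its exon length, on either strand, and its counts are less certain for that reason. *Neurod2* and *Neurod6*, which mark postmitotic projection neurons, had log2 fold changes of -0.089 and -0.11. Their libraries differed more by run than by genotype. Control libraries 2 and 3 had 4296 and 4163 normalized counts of *Neurod2*, as against 2791 and 2982 in libraries 10 and 11, and the mutant libraries followed the same split with 4233 in library 5 against 3202 and 2598 in libraries 12 and 13.

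Among 8 genes of the upper layers and layer 4, 3 were lower in mutants and 5 did not pass the threshold. *Rasgrf2*, a guanine nucleotide exchange factor for Ras that marks upper layer neurons, had 3845, 3358, 4826 and 4653 normalized counts in the controls, as against 1492, 1816 and 1804 in the mutants. The genotypes lay far apart, and the mutant libraries were close to each other. The mean fell from 4170 ± 690 (SD, n = 4 pools) to 1704 ± 184 (SD, n = 3 pools), or to 40.9% of the control mean, and the log2 fold change was -1.29 (SE 0.144, edgeR adjusted p = 0.00225). *Scnn1a*, the alpha subunit of the epithelial sodium channel and a marker of layer 4, had 215, 179, 225 and 248 normalized counts in the controls, as against 76.6, 98.3 and 85.2 in mutants. Its mean fell to 40.0% of the control mean, with a log2 fold change of -1.32 (SE 0.164, edgeR adjusted p = 0.00378). Both genes remained past the threshold in all 16 alternative fits.

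*Rorb* encodes a nuclear receptor of layer 4 neurons and was lower by a smaller amount. It had 1904, 2392, 2312 and 2295 normalized counts in the controls, as against 1453, 1712 and 1649 in the mutants. The genotypes did not overlap, and control library 2 lay nearest to the mutants. The log2 fold change was -0.47 (SE 0.102, edgeR adjusted p = 0.0351). The call of *Rorb* held without control library 2 (adjusted p = 0.0219, edgeR) and was lost when any other library was left out, with adjusted p-values from 0.0577 without control library 3 to 0.143 without mutant library 5, and in between without control libraries 10 and 11 and mutant libraries 12 and 13.

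*Rasgrf2* spans 91880400 to 92131656 of GRCm38 chromosome 13 (minus strand), *Scnn1a* spans 125320659 to 125344943 on the plus strand of chromosome 6, and *Rorb* spans 18930605 to 19111196 on the minus strand of chromosome 19. The table of RefSeq start sites used here (GRCm38.p6) held 40 for 28 of the 34 genes, and the 250 bases before each were searched on both strands for 5 motifs. These were the cyclic AMP response element TGACGTCA, the AP-1 motif TGANTCA, the NeuroD E-box CAGATG, the POU octamer ATGCAAAT and the SOX motif AACAAT. *Crym*, *Scnn1a* and *Calb1*, which were called lower, and *Ctgf*, *Foxp2* and *Pou3f1* were not searched. A cyclic AMP response element is not counted as AP-1, and no motif contains another. The windows shown are those of genes called lower that cover no annotated exon of the gene, because these genes moved in 1 direction and would show whether their starts look alike. They lie at chr13:92131829-92132078 for *Rasgrf2* (minus strand), at chr19:19111197-19111446 and chr19:19001118-19001367 for the outer and inner starts of *Rorb* (minus strand), at chr2:38339031-38339280 for *Lhx2* (plus strand) and at chr12:38779832-38780081 for an inner start of *Etv1* (plus strand), both described further on. The window of *Rasgrf2* does not adjoin the annotated gene, which ends at 92131656, and 0 annotated transcripts continue from it. Capitals mark a motif match.
Rasgrf2: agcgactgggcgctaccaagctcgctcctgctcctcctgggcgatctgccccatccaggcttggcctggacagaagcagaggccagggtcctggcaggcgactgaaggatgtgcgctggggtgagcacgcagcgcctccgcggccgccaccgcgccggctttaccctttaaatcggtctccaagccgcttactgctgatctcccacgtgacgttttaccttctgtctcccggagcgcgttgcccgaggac
Rorb outer start: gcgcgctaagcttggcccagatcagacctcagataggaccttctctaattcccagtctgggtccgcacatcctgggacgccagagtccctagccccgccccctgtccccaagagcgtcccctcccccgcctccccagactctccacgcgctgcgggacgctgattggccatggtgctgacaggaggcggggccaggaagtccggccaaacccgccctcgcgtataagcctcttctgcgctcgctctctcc
Rorb inner start: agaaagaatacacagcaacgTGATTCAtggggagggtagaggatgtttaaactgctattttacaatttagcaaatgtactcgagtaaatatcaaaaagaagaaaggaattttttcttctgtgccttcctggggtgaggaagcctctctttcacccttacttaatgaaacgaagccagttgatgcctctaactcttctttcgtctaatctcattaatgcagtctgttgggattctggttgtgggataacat
Lhx2: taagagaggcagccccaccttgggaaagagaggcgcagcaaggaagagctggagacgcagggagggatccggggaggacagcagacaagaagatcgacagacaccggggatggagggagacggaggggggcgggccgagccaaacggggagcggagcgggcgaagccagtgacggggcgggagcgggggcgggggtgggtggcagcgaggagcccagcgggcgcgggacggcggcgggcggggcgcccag
Etv1 inner start: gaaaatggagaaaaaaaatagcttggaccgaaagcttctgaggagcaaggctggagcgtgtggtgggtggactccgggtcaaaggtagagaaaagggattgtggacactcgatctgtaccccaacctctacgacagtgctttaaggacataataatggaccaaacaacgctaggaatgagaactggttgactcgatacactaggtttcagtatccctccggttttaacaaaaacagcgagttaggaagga
The windows of *Rasgrf2* and *Lhx2* and the outer window of *Rorb* held 65.2%, 72.8% and 66.0% G and C and no match to these motifs. The inner window of *Rorb* held 39.2% G and C and 1 AP-1 match, and the window of *Etv1* shown held 46.4% and no match. A further window of *Etv1*, not shown because it covers an annotated exon, held a NeuroD E-box and a SOX motif. A further window of *Lhx2*, left out for the same reason, held no match. The median over the 40 windows of the set was 61.2% G and C, beside 52.4% over all 32851 windows. An AP-1 match stood in 3 of the 40 windows (7.5%, against 6.75% of all windows), a NeuroD E-box in 6 (15%, against 14.4%) and a SOX motif in 4 (10%, against 9.42%). No window of the set held a cyclic AMP response element or a POU octamer, which stand in 1.55% and 1.60% of all windows.

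Of the other upper layer genes, *Pou3f1* was higher in mutants without passing the threshold, and the rest stayed close to the control level. *Cux2*, a homeobox gene of upper layer neurons, had 5909, 4769, 5037 and 5792 normalized counts in the controls, as against 5462, 5941 and 4854 in mutants. The libraries of both genotypes covered nearly the same range, and the log2 fold change was 0.011 (95% interval -0.24 to 0.26), with a sign that turned in the fits without control library 3 (-0.043), without control library 10 (-0.019) and without mutant library 12 (-0.059). *Cux1*, its close relative, had a log2 fold change of -0.015 (95% interval -0.21 to 0.18). Among POU domain factors of class 3, *Pou3f2* and *Pou3f3*, which act in upper layer neurons, had log2 fold changes of -0.018 (95% interval -0.20 to 0.17) and -0.016 (95% interval -0.27 to 0.24). *Pou3f1* had 1860, 1707, 1303 and 1636 normalized counts in the controls, as against 2220, 2417 and 1829 in mutants, so that mutant library 13 fell within the control range. Its log2 fold change was 0.41 (95% interval 0.096 to 0.72, adjusted p = 0.152, edgeR), and with a covariate for the run it was called higher (0.44, adjusted p = 0.0482, edgeR).

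**Figure D2:**
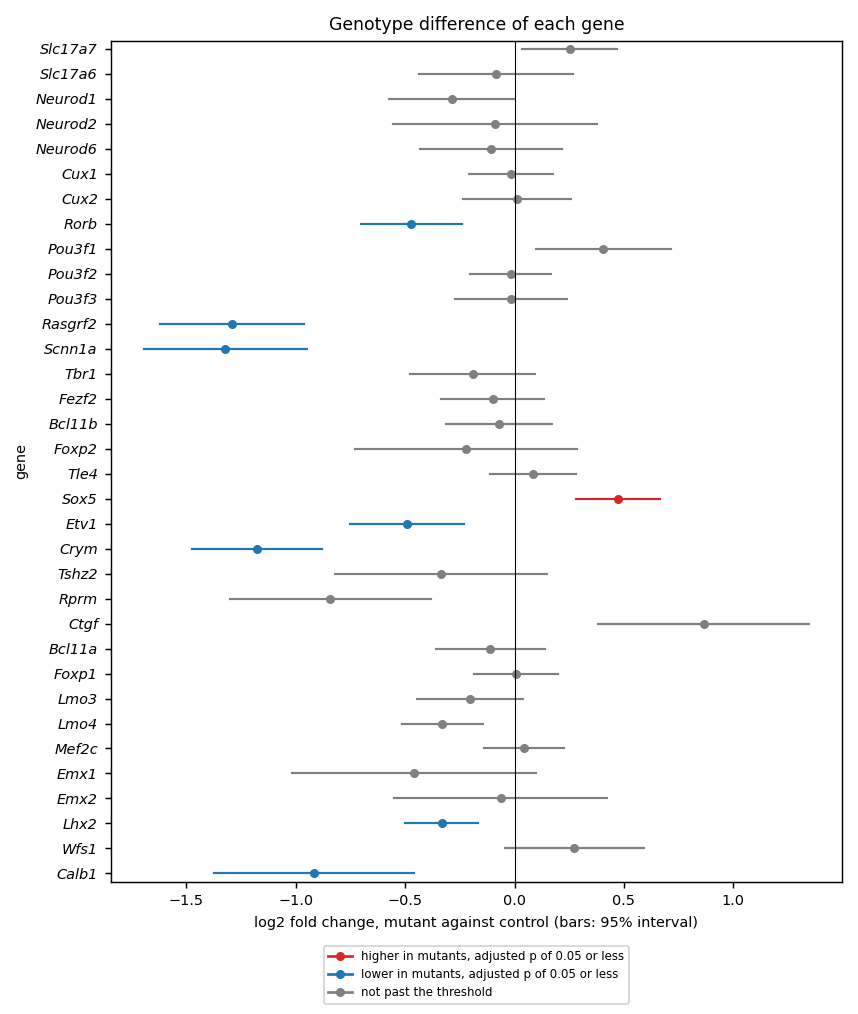
Log2 fold change of each gene in mutants against controls (x axis, edgeR) with its 95% interval as a bar, with 1 row per gene. Blue marks the 7 genes lower and red the 1 gene higher at an adjusted p of 0.05 or less, and grey marks the other 26. *Scnn1a* and *Rasgrf2* lie farthest to the left, at -1.32 and -1.29.

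In the group of 11 deep layer genes, *Crym* and *Etv1* were lower, *Sox5* was higher and 8 did not pass the threshold. *Crym* encodes a thyroid hormone binding protein, mu-crystallin, found in deep layer and other forebrain neurons. It had 3826, 4048, 3750 and 2897 normalized counts in the controls, as against 1409, 1725 and 1677 in the mutants. The lowest control library lay well above the highest mutant library. The mean of *Crym* fell from 3630 ± 505 (SD, n = 4 pools) to 1604 ± 170.3 (SD, n = 3 pools), a log2 fold change of -1.18 (SE 0.131, edgeR adjusted p = 0.00224), and the call held in all 16 alternative fits. Within the first run of library numbers the difference was -1.48, and within the second it was -0.95. *Crym* spans 120186380 to 120202111 on the minus strand of chromosome 7.

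*Etv1*, an ETS transcription factor of layer 5 neurons, had 2357, 1929, 2692 and 2358 normalized counts in the controls, as against 1535, 1733 and 1716 in mutants. Its log2 fold change was -0.49 (SE 0.115, edgeR adjusted p = 0.0478). This call lay closest to the threshold, was kept without control library 3 (adjusted p = 0.0120, edgeR), and was lost without any other single library, with adjusted p-values from 0.0890 without control library 2 to 0.156 without mutant library 5, and in between without control libraries 10 and 11 and mutant libraries 12 and 13. It was also lost with limma-voom (adjusted p = 0.0555) and with upper quartile normalization (adjusted p = 0.0512, edgeR). *Sox5*, a transcription factor that acts in the specification of deep layer projection neurons, was the 1 gene called higher. It had 1705, 1425, 1667 and 1718 normalized counts in the controls, as against 2267, 2183 and 2326 in mutants, and all mutant libraries exceeded all control libraries. The log2 fold change of *Sox5* was 0.47 (SE 0.0845, edgeR adjusted p = 0.0166). Its call was lost without mutant library 5, 12 or 13 (adjusted p = 0.0525, 0.0595 and 0.0984, edgeR). The antisense gene *Sox5os1* covers 9.25% of the exon length of *Sox5*, and without a stated strand the reads of both cannot be told apart there. For *Etv1*, 9.76% of its 36-base words occur in other genes as well, and RSEM divides such reads. *Etv1* spans 38779380 to 38868215 on the plus strand of chromosome 12, and *Sox5* spans 143828425 to 144781977 on the minus strand of chromosome 6.

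*Rprm* and *Ctgf* did not overlap between genotypes and missed the threshold. *Rprm*, a gene of layer 6 neurons that was first described in cell cycle arrest, had 3048, 3183, 1857 and 2014 normalized counts in the controls, as against 1457, 1523 and 1247 in the mutants. Its controls split by run, and the log2 fold change was -0.84 (SE 0.202, edgeR adjusted p = 0.0519). Within the runs the difference was -1.10 and -0.49. *Ctgf*, a matricellular protein gene of the deepest cortical layer and of vessels, had 729, 880, 1235 and 1243 normalized counts in the controls, as against 1432, 2222 and 1927 in mutants. The log2 fold change was 0.86 (SE 0.212, edgeR adjusted p = 0.0561), with 0.84 and 0.74 within the runs. An antisense gene overlaps 23.2% of its exon length. *Rprm* was called in 6 and *Ctgf* in 7 of 16 alternative fits, among them DESeq2 (adjusted p = 0.000908 and 0.00163). With the run as a covariate both were called, *Rprm* at -0.72 (adjusted p = 0.0111, edgeR) and *Ctgf* at 0.78 (adjusted p = 0.00113, edgeR). A list of 6 endothelial markers summed to between 193 and 208 CPM in controls and between 245 and 251 CPM in mutants, none of its genes was called, and its part in the values of *Ctgf* was not tested.

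The transcription factors most used to name deep layer neurons did not pass the test. *Fezf2*, which specifies subcerebral projection neurons, had 1245, 1047, 1044 and 976 normalized counts in the controls, as against 1089, 967 and 960 in mutants, with a log2 fold change of -0.10 (95% interval -0.34 to 0.13). *Tbr1*, a T-box gene of layer 6, had 4117, 4273, 4221 and 4803 in controls and 3254, 4614 and 3564 in mutants. Mutant library 12 stood within the control range while the other mutant libraries lay below it, and the log2 fold change was -0.19 (95% interval -0.48 to 0.093). *Bcl11b*, known as Ctip2 and shared with striatal projection neurons, had 3638, 3396, 3060 and 3721 in controls and 3050, 3764 and 3056 in mutants, a log2 fold change of -0.070 (95% interval -0.31 to 0.17). *Tle4*, a corepressor of layer 6 neurons, had a log2 fold change of 0.084 (95% interval -0.11 to 0.28). *Foxp2*, which layer 6 and striatal neurons share, spread between 344 and 620 normalized counts in mutants and between 421 and 687 in controls, with a log2 fold change of -0.22 (95% interval -0.73 to 0.28). For *Tshz2* other genes cover 67.5% of the exon length, and its log2 fold change of -0.34 (95% interval -0.82 to 0.15) is uncertain for that reason.

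A further 10 genes of regional identity or broader neuronal use were followed, of which *Calb1* and *Lhx2* were lower. *Calb1* encodes calbindin, a calcium buffer of upper layer neurons, hippocampal granule cells, striatal neurons and interneurons. It had 2536, 4027, 3916 and 3432 normalized counts in the controls, as against 1353, 2117 and 2060 in the mutants. Library 2 was the lowest control and still exceeded the highest mutant library. Its log2 fold change was -0.92 (SE 0.200, edgeR adjusted p = 0.0371), and -1.24 and -0.81 within the runs. The call of *Calb1* held without control library 2 (adjusted p = 0.0230, edgeR) and was lost without any other library, with adjusted p-values from 0.0706 without control library 3 to 0.105 without mutant library 13, and in between without control libraries 10 and 11 and mutant libraries 5 and 12. In a list of 14 markers of GABAergic neurons, which includes *Lhx6*, 5 genes were lower and 1 higher. Their summed level ran from 1296 to 1433 CPM in controls and from 1038 to 1322 CPM in mutants, and *Sst* fell to 588 ± 70.7 normalized counts (SD, 3 pools) from 5356 ± 874 (SD, 4 pools). How much of the *Calb1* difference came from interneurons was not tested. *Calb1* spans 15881264 to 15908064 on the plus strand of chromosome 4.

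*Lhx2*, a LIM homeobox gene of dorsal telencephalic progenitors that upper layer neurons and astrocytes keep, had 2992, 2848, 2956 and 2824 normalized counts in the controls, as against 2287, 2460 and 2168 in mutants. Its control libraries varied least of the set, with a coefficient of variation of 2.80%, where the other genes reached up to 27.2%. The log2 fold change was -0.33 (SE 0.0728, edgeR adjusted p = 0.0368). The call of *Lhx2* was kept without control library 3 (adjusted p = 0.0409, edgeR) and lost without any other library, with adjusted p-values from 0.0752 without mutant library 12 to 0.191 without mutant library 13, and in between without control libraries 2, 10 and 11 and mutant library 5. Without a filter on low counts it was 0.0606 (edgeR). *Lhx2* spans 38339281 to 38369733 on the plus strand of chromosome 2.

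The LIM-only gene *Lmo4*, a transcriptional cofactor, had 6907, 7355, 7179 and 6838 normalized counts in the controls, as against 5202, 6007 and 5669 in mutants. These did not overlap, and the log2 fold change was -0.33 (SE 0.0805, edgeR adjusted p = 0.0552), past the threshold with the run as a covariate (-0.34, adjusted p = 0.0176, edgeR) and with DESeq2 (adjusted p = 0.00272). *Lmo3*, of the same family, had a log2 fold change of -0.20 (95% interval -0.45 to 0.038). *Mef2c*, a MADS-box factor of cortical projection neurons, and *Foxp1*, a forkhead factor of cortex and striatum, had log2 fold changes of 0.043 (95% interval -0.14 to 0.23) and 0.0062 (95% interval -0.19 to 0.20). *Bcl11a*, a zinc finger gene related to *Bcl11b*, had a log2 fold change of -0.11 (95% interval -0.36 to 0.14). *Wfs1*, an endoplasmic reticulum protein gene enriched in pyramidal cells of hippocampal area CA1, had 4705, 4522, 6142 and 5230 normalized counts in the controls, as against 5275, 7263 and 6138 in mutants, with a log2 fold change of 0.27 (95% interval -0.044 to 0.59).

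The *Emx* genes mark the dorsal telencephalon and differed between the runs. Among controls, *Emx1* stood at 995 and 1005 normalized counts in libraries 2 and 3 and at 577 and 674 in libraries 10 and 11. Mutant library 5 had 782, between these, and mutant libraries 12 and 13 had 509 and 482, below all controls. The pooled log2 fold change was -0.46 (SE 0.245, edgeR adjusted p = 0.381), the differences within the runs were -0.35 and -0.33, and *Emx1* was called lower with the run as a covariate (-0.34, adjusted p = 0.0283, edgeR). *Emx2* had a log2 fold change of -0.064 (95% interval -0.55 to 0.42), and its controls stood at 455 and 395 normalized counts in libraries 2 and 3, as against 274 and 278 in libraries 10 and 11.

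Genotype differences were therefore compared within the runs for the whole set. Both runs gave the same sign for 25 of the 34 genes (73.5%), against 70.0% of all genes tested. A gene whose libraries do not overlap must have the same sign in both, and among the 22 genes whose libraries overlap it was the same for 13 (59.1%), against 62.7% of all such genes. For *Rasgrf2* the differences were -1.27 and -1.39, for *Scnn1a* -1.34 and -1.36, for *Rorb* -0.55 and -0.45, for *Etv1* -0.47 and -0.55, for *Lhx2* -0.35 and -0.32, and for *Sox5* 0.54 and 0.41. The controls themselves differed between runs by over 0.5 on the log2 scale for 5 genes, lower in libraries 10 and 11 for *Rprm* (-0.69), *Emx1* (-0.68), *Emx2* (-0.61) and *Neurod2* (-0.55) and higher for *Ctgf* (0.63). With the run as a covariate, 13 of the 34 genes (38.2%) were called, against 11.2% of all genes, with 3 higher (6.16% of all genes) and 10 lower (5.04%). In libraries 10 to 13 alone, 11 (32.4%) were called, against 10.3% of all genes, with 3 higher (5.8%) and 8 lower (4.48%). The genes gained with the covariate were *Pou3f1*, *Rprm*, *Ctgf*, *Lmo4* and *Emx1*, and none of the 8 was lost.

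**Figure D3:**
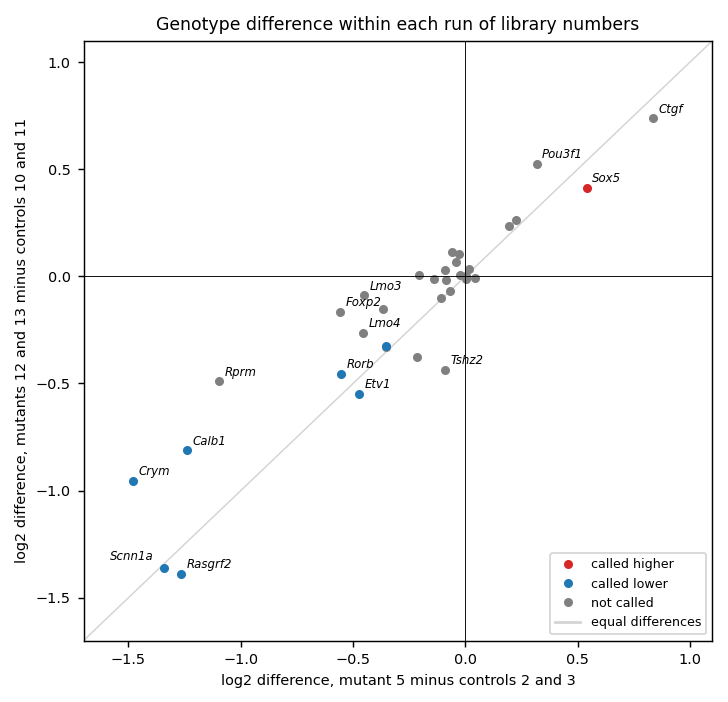
Genotype difference of each gene on the log2 scale (pseudocount of 1 normalized count) within libraries 2, 3 and 5 (x axis) and within libraries 10 to 13 (y axis). Each point is a gene, coloured by its call over all libraries, and the grey line marks equal differences. *Crym* and *Rprm* lie above the line, with larger decreases in the first run, and *Rasgrf2* and *Scnn1a* lie near it.

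Levels were also compared between genes, per kilobase of exon. *Slc17a7* stood far above the rest at 649 CPM per kilobase in controls and 773 in mutants. *Lmo4* followed at 56.2 and 44.7, *Rprm* at 48.5 and 27.1, and *Mef2c* at 43.1 and 44.4. Most of the set was of moderate level, with 22 of the 34 genes over 10 CPM per kilobase in controls. At the lower end were *Sox5* at 3.18 and 4.41, *Scnn1a* at 1.47 and 0.589, and *Foxp2* at 0.991 and 0.850. Since exons of all transcripts were joined, genes with many transcripts, such as *Foxp2*, have a lower level than they would per length of their longest transcript.

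**Figure D4:**
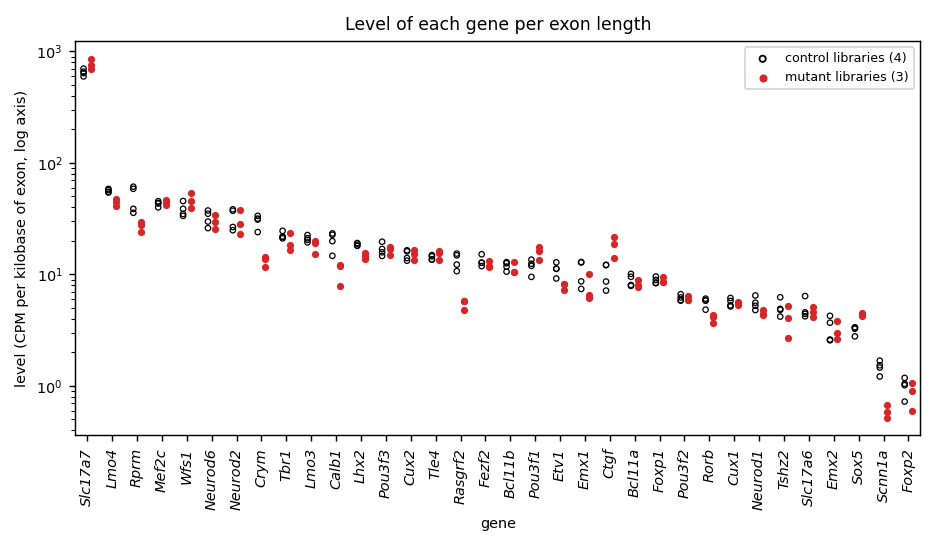
Level of each gene in CPM per kilobase of joined exon length (y axis, log scale), with genes ordered by their control mean (x axis). Open circles are the 4 control libraries and filled circles the 3 mutant libraries. *Slc17a7* stands at 649 in controls, and the libraries of *Rasgrf2*, *Crym* and *Scnn1a* form groups apart.

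A list of 41 other genes of excitatory neurons, cortical layers and hippocampal fields was examined beside the set. Of these, 5 were higher and 7 lower at an adjusted p of 0.05 or less, or 29.3% against the 4.85% of all genes, with a median log2 fold change of -0.076. The list was chosen with earlier results of these data known, so this share is not independent of them. The largest decreases were in *Moxd1* (-1.58, SE 0.186, edgeR adjusted p = 0.00278), a monooxygenase gene, and in *Fibcd1* (-1.42, SE 0.113, edgeR adjusted p = 0.000581), a marker of hippocampal area CA1. *Fibcd1* had 1674, 1398, 1823 and 1522 normalized counts in the controls, as against 550 to 646 in mutants. *Slc30a3*, the zinc transporter of glutamatergic synaptic vesicles, fell to 2468 ± 252 normalized counts (SD, 3 pools) from 5005 ± 166 (SD, 4 pools), with a log2 value of -1.02 (SE 0.0885, edgeR adjusted p = 0.000674). *Nrgn*, the calmodulin binding protein neurogranin, and *Npr3*, a natriuretic peptide receptor, had log2 fold changes of -0.998 and -0.70. *Inhba*, which encodes an activin subunit, rose to 352 ± 134 normalized counts (SD, 3 pools) from 80.9 ± 27.3 (SD, 4 pools), with a log2 value of 2.12 (SE 0.316, edgeR adjusted p = 0.00782). *Slco2a1*, a prostaglandin transporter gene, *Syt6*, a synaptotagmin of layer 6 neurons, and *Nxph4*, a neurexophilin, rose by 1.098, 1.09 and 0.73 on the log2 scale. Their adjusted p-values were 0.00689, 0.00104 and 0.0478 (edgeR).

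**Figure D5:**
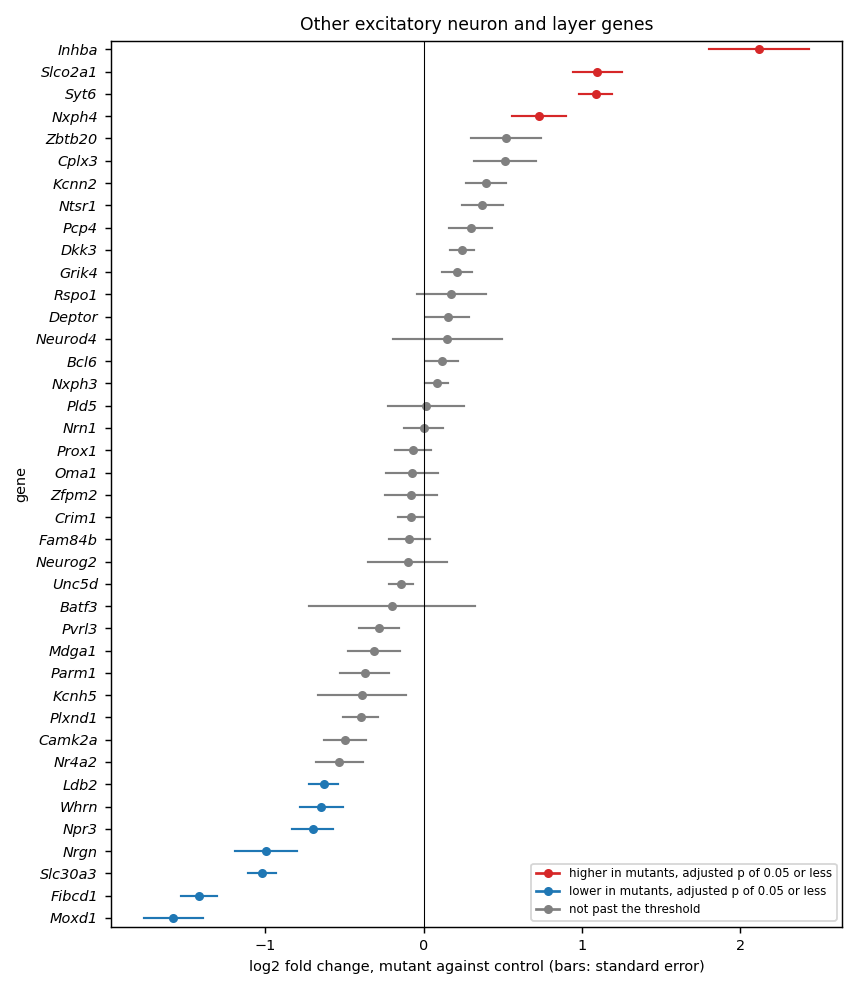
Log2 fold change in mutants against controls (x axis, edgeR) of 40 of the other excitatory neuron and layer genes, ordered by value, with the standard error as a bar. Red marks the 4 of these higher and blue the 7 genes lower at an adjusted p of 0.05 or less. *Inhba* lies farthest right at 2.12 and *Moxd1* farthest left at -1.58.

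Markers of other cells were summed in the same libraries, because a shift in the mix of cells changes the share of neuronal RNA. The summed level of the 34 genes ran from 4893 to 5184 CPM in controls and from 4850 to 5555 CPM in mutants. The 2 vesicular transporters made up 1778 to 2086 CPM of it in controls and 2092 to 2554 CPM in mutants. The 41 other excitatory and layer genes did not stay level, with between 7096 and 8176 CPM in controls and between 5174 and 5624 CPM in mutants. Highest among these 41 were *Camk2a* and *Nrgn*. *Camk2a* averaged 128237 normalized counts in controls and 91020 in mutants (adjusted p = 0.0743, edgeR), and *Nrgn* 71172 and 35628. The 8 upper layer and layer 4 genes summed to between 609 and 691 CPM in controls and between 539 and 609.6 CPM in mutants, and the 11 deep layer genes to between 671 and 695 CPM and between 547 and 649.5 CPM. In the first of these sums *Rasgrf2* had the largest fall, from a mean of 4170 to 1704 normalized counts. *Rorb* fell from 2226 to 1605 and *Pou3f1* rose from 1627 to 2156. *Cux1*, *Cux2*, *Pou3f2* and *Pou3f3* stayed between 98.7% and 100.8% of the control mean. A list of 8 astrocyte markers summed to between 5982 and 8625 CPM in controls and between 9409 and 10998 CPM in mutants, with 1 gene called higher, *Gfap*. By far the highest of the 8, *Slc1a2*, averaged 197129 normalized counts in controls and 267793 in mutants and was not called (adjusted p = 0.200, edgeR). *Aldh1l1*, *Slc1a3*, *Aldoc* and *S100b* had log2 fold changes from -0.049 to 0.12, and *Aqp4* and *Gja1* had 0.59 and 0.30. In contrast, 8 oligodendrocyte markers summed to between 6880 and 9042 CPM in controls and between 4929 and 6239 CPM in mutants, with 3 called lower. Striatal projection neuron markers, 12 in number, summed to between 762 and 1104 CPM in controls and between 979 and 1369 CPM in mutants, with *Penk* and *Tac1* called higher. None of 8 microglial markers was called, and these summed to between 399 and 410 CPM in controls and between 339 and 393 CPM in mutants. The part of these cell types in the differences of the set was not tested.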

How the data were processed

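The authors trimmed single-end reads of 36 bases with cutadapt 1.9.1, ran Bowtie2 2.2.9 against transcripts of Ensembl release 84 (GRCm38) and deposited the expected counts per gene of RSEM 1.2.31, not normalized (versions from the submitters' processing notes). RSEM divides a read among the genes it matches, and the strand setting is not given in the sources used here. The authors also deposited their DESeq2 comparison (fold changes and p-values), of which gene symbols alone were taken, and the exon annotation, which gave positions, lengths and overlaps. Columns name a genotype and a library number, which matches no replicate number in the records, so the sex and RNA quality recorded per pool (RNA integrity 9 to 10) were not assigned. No column was left out (0).

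Expected counts were rounded, filtered to at least 10 counts in at least 3 libraries and tested in edgeR 4.0.16 (R 4.3.3) with TMM scaling, glmQLFit and glmQLFTest on genotype alone, with Benjamini-Hochberg adjustment over all genes tested and a threshold of 0.05. Standard errors are the log2 fold change over the root of F, and 95% intervals use the degrees of freedom of that test. Normalized counts are scaled to the mean effective library size. Levels are CPM per kilobase of joined exon length. A count of 0 allows up to 3 counts, at most 0.0921 CPM, which covers counting error only. Each library was a separate pool of animals and counted as 1 replicate. Libraries of a genotype differed by more than counting noise (chi-square per degree of freedom 10.2 to 72.6). DESeq2 1.42.0, limma-voom (limma 3.58.1), other scalings, filters and libraries were alternatives. The genes, lists, motifs and the run of library numbers were chosen with earlier results of these data known. Per-library values were given for genes of the set past the threshold and genes of the set whose genotypes did not overlap. They were also given for *Slc17a7*, *Slc17a6*, *Cux2*, *Rorb*, *Fezf2*, *Tbr1* and *Bcl11b*, with *Neurod2*, *Emx1*, *Emx2*, *Pou3f1* and *Wfs1* added after their values were seen. Of the other excitatory and layer genes, the 5 largest decreases were named, and among the increases *Inhba*, *Slco2a1*, *Syt6* and *Nxph4*. *Camk2a* was added for its high level. Values of 2 genes of these lists are not reported here, although they count in the list totals.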

Additional observations from a re-analysis of the deposited data

Results flagged for a closer look

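*Slc17a6* had 1230 normalized counts in control library 10, against 878 in the next highest control library, a gap of 0.837 of the range of the 4 controls, past Dixon's critical value for 4 samples. It was the 1 gene of the 34 examined for which this held, and chance flags about 1 in 20 groups of this size. In the same library *En1*, a midbrain and hindbrain marker of the cerebellar and hindbrain list, had 35.5 normalized counts, against 0 to 5.08 in the other libraries. Whether the values are related was not tested.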

How the results depend on the processing

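Over 9 alternative fits, the genes called among the set went from 8 to 13 with library run fitted as a covariate, and the genes called higher from 1 to 2 (DESeq2, upper quartile normalization, no filter, or a filter on all 7 libraries) or 3 (the covariate, or libraries 10 to 13 alone). Over all genes the count went from 954 (585 higher, 369 lower) to 1731 (1002 and 729) with DESeq2, 2205 (1213 and 992) with the covariate and 1922 (1084 and 838) in libraries 10 to 13, and the count of other excitatory and layer genes from 12 to 20 and 19 in the last 2 of these. With 1 library left out, the set had 3 (without mutant library 12 or 13), 4 (without control library 11 or mutant library 5), 5 (without control library 10) or 6 genes called, 0 to 1 higher and 3 to 5 lower, all genes 302 to 971 called (223 to 589 higher, 79 to 382 lower), and the other excitatory and layer genes 6 to 15. The median change of the set then ran from -0.16 to -0.055, and in libraries 10 to 13 alone it was -0.031. *Bcl11b* turned sign in libraries 10 to 13 (0.019), *Cux2* ran from -0.059 to 0.086 and *Slc17a6* from -0.16 to 0.069 over the fits without 1 library, and in at least 1 alternative the sign also turned for *Neurod2*, *Cux1*, *Pou3f2*, *Pou3f3*, *Foxp1* and *Emx2*. The median level of the set was 12.6 CPM per kilobase, and 15.6 per length of the longest transcript. The cause of these shifts was not tested. No paired analysis was possible because the columns carry no replicate number. Of the 26 genes of the set that were not called, 15 had a 95% interval within 0.5 of 0 on the log2 scale and 11 had one that reached past it.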
